A study of Mus musculus with 6 samples.

Results

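Synaptotagmins are membrane proteins of secretory vesicles and of the plasma membrane that carry a pair of C2 domains in the cytosol. The 10 genes Syt1, Syt3, Syt4, Syt5, Syt7, Syt9, Syt11, Syt13, Syt14 and Syt17 were taken by gene symbol from the 54532 genes of the deposited table, which lists 17 Syt genes in all. They were followed in mouse pancreatic islet libraries labelled as beta cells, 3 from Bcas2 conditional knockout (Bcas2 cKO) and 3 from wild-type control. The comparison asks which synaptotagmin transcripts differ when Bcas2, which encodes a subunit of the spliceosome-associated Prp19 complex, is targeted in these cells. The series title ties the study to the synthesis and secretion of insulin.

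In beta cells an influx of Ca2+ makes insulin granules fuse with the plasma membrane through SNARE proteins. Synaptotagmins whose C2 domains bind Ca2+ couple that signal to the SNAREs, and members differ in their affinity for Ca2+. Other members bind Ca2+ poorly or not at all and act in vesicle traffic, in membrane retrieval or as modulators of release.

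The Bcas2 cKO group was labelled with the genotype Cko and the control group with wt. The sources used here give neither the Cre driver nor the part of Bcas2 that was deleted, nor the age of the mice, and the series design text speaks of a knockdown. The Bcas2 cKO libraries carry the numbers 3, 4 and 5 and the control libraries 1, 3 and 4. The number 5 is on no sample label and no Bcas2 cKO column carries the label number 1, so library 5 was used by its group only, and whether it is the sample labelled 1 is not known. Bcas2 itself was 8.76, 8.40 and 9.14 FPKM (fragments per kilobase, scaled to sequencing depth) in Bcas2 cKO libraries 3, 4 and 5, against 10.3, 15.04 and 11.2 FPKM in control libraries 1, 3 and 4. The groups did not overlap, and the limma adjusted p was 0.083. Reads on genes, recovered from the FPKM, came to 16351800 to 16904326 per Bcas2 cKO library and 15170439 to 15594871 per control library.

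The preparations also held other cells. Marker counts that rose or fell are limma calls, and over all genes tested 6.97% rose and 7.55% fell. The 10 beta cell markers, all detected and led by Ins1 and Ins2, took 14.6 to 16.0% of reads in Bcas2 cKO and 20.5 to 28.8% in control. Of these, 3 fell, namely Slc2a2, Ucn3 and Slc30a8, while Ins1 and Ins2 were not called (limma adjusted p 0.44 and 0.38). The log2 fold change was negative for 9 of the 10 and positive for 1, Mafa, which was not called. The 29 acinar markers, from the exocrine pancreas, took 2.14 to 5.96% in Bcas2 cKO and 0.654 to 1.601% in control, and 12 of the 27 tested rose. The 6 alpha cell markers took 3.57 to 4.20% in Bcas2 cKO and 2.83 to 3.003% in control, and 2 of them rose. The 10 ductal markers took 0.105 to 0.128% in Bcas2 cKO and 0.0513 to 0.0564% in control, and 2 of the 8 tested rose. The 12 macrophage and lymphocyte markers took 0.0182 to 0.0234% in Bcas2 cKO and 0.0131 to 0.0152% in control, and 5 of the 10 tested rose. The 12 Schwann cell and neuron markers took 0.0149 to 0.0202% in Bcas2 cKO and 0.0171 to 0.0180% in control. Of the 9 tested, 1 rose and 2 fell. Delta cell markers took 0.337 to 0.426% in Bcas2 cKO and 0.297 to 0.488% in control. The PP cell marker Ppy took 0.293 to 0.478% in Bcas2 cKO and 0.192 to 0.376% in control. Endothelial markers took 0.0435 to 0.0529% in Bcas2 cKO and 0.0439 to 0.0522% in control. Stellate and fibroblast markers took 0.0104 to 0.0238% in Bcas2 cKO and 0.00769 to 0.0107% in control. These shares overlapped between groups, and 1 endothelial marker fell. The 18 immediate early genes took 1.78 to 2.16% in Bcas2 cKO and 0.252 to 0.631% in control, and 16 of the 17 tested rose. The part of these shifts in the synaptotagmin values was not tested. In such mixed samples, fewer cells of a type and less RNA per cell cannot be told apart.

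The synaptotagmins of these islets spanned a wide range of levels, and Syt13 outweighed all the others. Per length, Syt13 averaged 261 ± 20.7 FPKM in Bcas2 cKO and 326 ± 29.2 FPKM in control (SD, n = 3 each), which was 60.5 to 69.4% of the summed FPKM of the 17 Syt genes in Bcas2 cKO and 68.2 to 73.3% in control. In Bcas2 cKO the order below it was Syt7, Syt4, Syt5, Syt14, Syt11, Syt3, Syt9, Syt1 and Syt17. Neighbours with overlapping ranges there were Syt7 and Syt4, Syt14 and Syt11, and Syt3 and Syt9. In control the order was the same except that Syt11 stood above Syt14, and only that pair of neighbours overlapped. Control libraries held Syt7 above Syt4 in all 3 cases, whereas in Bcas2 cKO library 4 Syt4, at 49.7 FPKM, exceeded Syt7, at 45.3 FPKM.

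**Figure D1:**
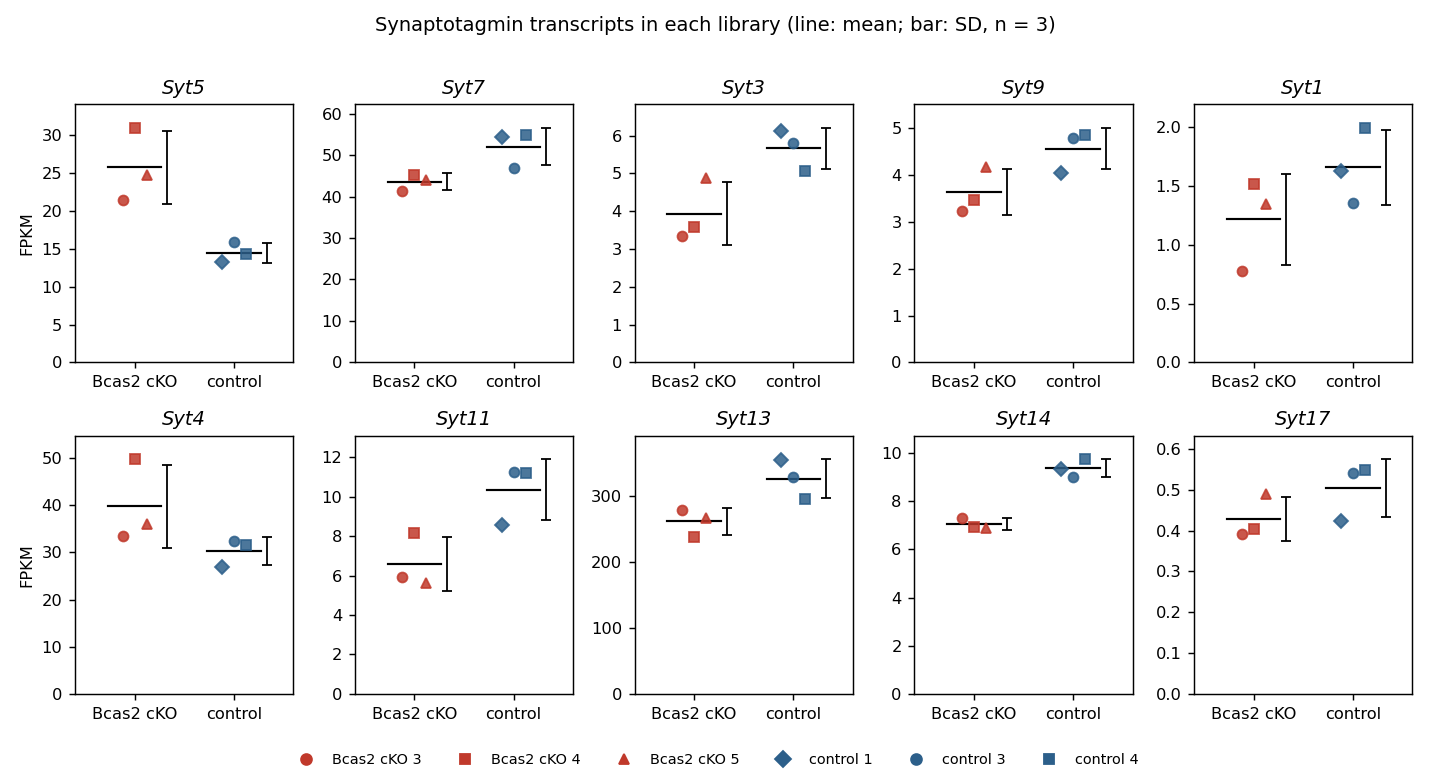
FPKM of the 10 synaptotagmins (vertical axes, each starting at 0) in the 3 Bcas2 cKO libraries (red) and the 3 control libraries (blue). Points are libraries, lines are means and bars are SD. Syt5 and Syt4 were higher in every Bcas2 cKO library than in any control library, and Syt3, Syt7, Syt11, Syt13 and Syt14 were lower, while Syt1, Syt9 and Syt17 overlapped.

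Syt5 rose, and Syt11 and Syt14 fell, in Bcas2 cKO. Changes were called with limma on log2(FPKM + 1), at a Benjamini-Hochberg adjusted p under 0.05 over the 13723 genes whose mean reached 1 FPKM. Of the 10 members 9 were tested, and these 3 passed, against 14.5% of all genes tested (6.97% rose and 7.55% fell). The 3 against 3 values did not overlap for 7 of the 9 tested members, 2 higher and 5 lower in Bcas2 cKO. The values of 38.0% of all genes tested did not overlap, 16.8% with Bcas2 cKO higher and 21.1% with Bcas2 cKO lower. The median log2 fold change was -0.27 over the 9 members and -0.03 over all genes tested. Whether each library came from its own animal is not stated in the labels, and the spread behind the p-values, that between libraries, may therefore be technical.

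**Figure D2:**
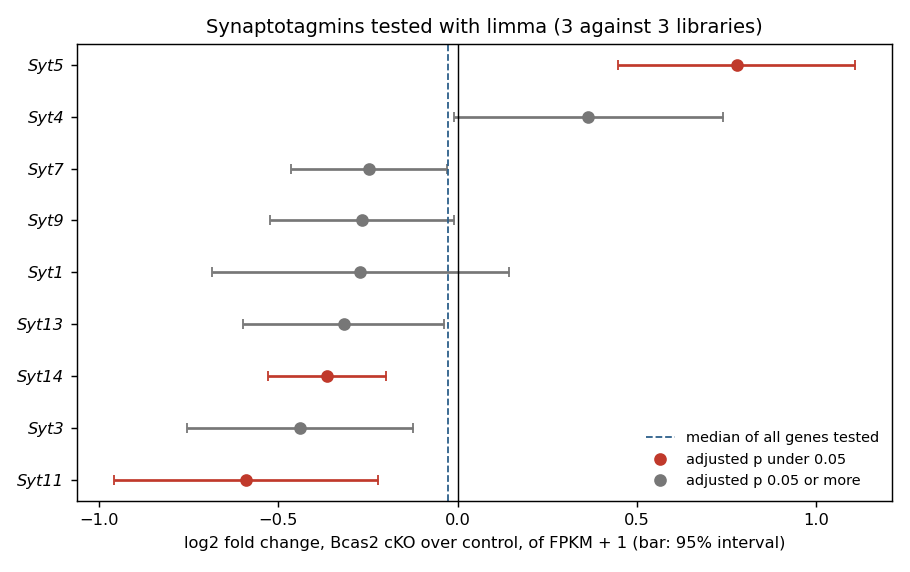
Log2 fold change of FPKM + 1, Bcas2 cKO over control (horizontal axis), for the 9 tested synaptotagmins, with 95% intervals from limma. Syt5 rose (0.78), Syt11 (-0.59) and Syt14 (-0.36) fell, and the other 6 did not pass the threshold. Syt7, shown at -0.25, changed sign to 0.044 when libraries were rescaled to their summed FPKM without the acinar markers. Ins1 and Ins2 stayed in that sum.

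Among the members whose C2 domains bind Ca2+, Syt5 stood apart. Syt5 encodes a synaptotagmin of dense-core vesicles, and older papers exchange its name with that of Syt9, so the symbols of the table are used here. The gene (ENSMUSG00000004961) lies on the minus strand of chromosome 7, 4539765 to 4547541 (GRCm38), with 3 annotated coding transcripts. It was 21.5, 31.0 and 24.8 FPKM in Bcas2 cKO libraries 3, 4 and 5, against 13.2, 15.8 and 14.3 FPKM in control libraries 1, 3 and 4. The lowest Bcas2 cKO value was above the highest control value, and library 4 was the highest of all 6. The means were 25.7 ± 4.81 FPKM in Bcas2 cKO and 14.5 ± 1.33 FPKM in control (SD, n = 3 each), a ratio of 1.78. The log2 fold change was 0.78 (SE 0.14, 95% interval 0.45 to 1.11, limma adjusted p 0.015). Between 928 and 1297 reads in Bcas2 cKO and between 498 and 509 in control stood behind these values. Without control library 4 the call was lost (0.77, limma adjusted p 0.056). Without Bcas2 cKO library 5, whose acinar share was 5.96%, the log2 fold change was 0.80 (limma adjusted p 0.048).

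Syt7 encodes a sensor of high Ca2+ affinity that acts in the release of insulin and glucagon in mice. It lies on the plus strand of chromosome 19, 10389090 to 10453181. It was 41.3, 45.3 and 44.1 FPKM in Bcas2 cKO libraries 3, 4 and 5, against 54.4, 46.8 and 54.9 FPKM in control libraries 1, 3 and 4. The groups did not overlap, but the gap between Bcas2 cKO library 4 and control library 3 was narrow. The log2 fold change of -0.25 (SE 0.09, 95% interval -0.47 to -0.03) did not pass the test (limma adjusted p 0.12). Libraries were also rescaled to an equal summed FPKM of all genes but the acinar markers, a sum that keeps Ins1 and Ins2. Ins2 averaged 72591 FPKM in Bcas2 cKO and 135234 FPKM in control. This rescaling moved the median of all genes to 0.22, and the parts of acinar and insulin genes in that shift were not tested. The Syt7 value was then 0.044, or -0.18 relative to that median. A long noncoding gene, Gm26859 (1.09 FPKM on average), lies across the start of Syt7 on the other strand, and the sources used here do not say whether counting used strand.

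Syt9, a Ca2+ sensor also tied to insulin release in rodent beta cell lines, was 3.24, 3.47 and 4.18 FPKM in Bcas2 cKO libraries 3, 4 and 5, against 4.06, 4.78 and 4.86 FPKM in control libraries 1, 3 and 4. Bcas2 cKO library 5 lay above control library 1, so the groups overlapped. Syt9 had a log2 fold change of -0.27 (SE 0.11, 95% interval -0.52 to -0.01, limma adjusted p 0.14). Syt3, a Ca2+-binding member studied mainly in neurons, was 3.34, 3.59 and 4.89 FPKM in Bcas2 cKO libraries 3, 4 and 5, against 6.13, 5.80 and 5.07 FPKM in control libraries 1, 3 and 4. Every Bcas2 cKO value was below every control value, the closest pair being Bcas2 cKO library 5 and control library 4. The log2 fold change was -0.44 (SE 0.13, 95% interval -0.76 to -0.13) and the limma adjusted p was 0.070. Syt3 passed the threshold without Bcas2 cKO library 5 (-0.57, limma adjusted p 0.036).

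Syt1, the fast Ca2+ sensor of neurons, was among the scarce members. It was 0.780, 1.51 and 1.35 FPKM in Bcas2 cKO libraries 3, 4 and 5, on 118, 222 and 194 reads. Control libraries 1, 3 and 4 held 1.63, 1.35 and 1.99 FPKM, on 215, 152 and 244 reads. The groups overlapped, and Bcas2 cKO library 3 was the lowest of the 6. Syt1 had a log2 fold change of -0.27 (SE 0.17, 95% interval -0.69 to 0.14, limma adjusted p 0.33). On this scale the interval holds both no change and a fall of the size seen for Syt11. The scale understates changes of genes as low as Syt1. With a pseudocount of 0.1 FPKM the log2 fold changes were -0.45 for Syt1 (SE 0.29) and -0.66 for Syt11 (SE 0.17).

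Syt4 and Syt11 are close relatives whose first C2 domain carries a substitution at a residue needed to bind Ca2+. Syt4 is known in mouse beta cells as a modulator of the Ca2+ dependence of insulin release that increases as the cells mature. In neurons and neuroendocrine cells its gene responds to depolarization. Syt11 is known in neurons and immune cells as a brake on membrane retrieval and on release.

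Syt4, on chromosome 18, was 33.4, 49.7 and 36.1 FPKM in Bcas2 cKO libraries 3, 4 and 5, against 26.8, 32.5 and 31.6 FPKM in control libraries 1, 3 and 4. The groups did not overlap, although Bcas2 cKO library 3 and control library 3 differed by less than the SD of either group. The log2 fold change was 0.36 (SE 0.16, 95% interval -0.01 to 0.74, limma adjusted p 0.17). An antisense gene, Gm26658 (0.650 FPKM on average), overlaps Syt4 on the other strand. Bcas2 cKO library 4, which had the highest Syt4 and Syt5, also had the highest share of immediate early transcripts, 2.16% of reads. In control that share was highest in library 4 (0.631%, against 0.618% in library 3). Syt4 and Syt5 were highest in control library 3, at 32.5 and 15.8 FPKM. A link between these values was not tested.

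Syt11 (ENSMUSG00000068923) lies on the minus strand of chromosome 3, 88744700 to 88775164, with 4 annotated coding transcripts. It was 5.94, 8.13 and 5.61 FPKM in Bcas2 cKO libraries 3, 4 and 5, against 8.56, 11.3 and 11.2 FPKM in control libraries 1, 3 and 4. No values overlapped, but Bcas2 cKO library 4 and control library 1 were close. The means were 6.56 ± 1.37 FPKM in Bcas2 cKO and 10.3 ± 1.54 FPKM in control (SD, n = 3 each). Syt11 fell by 0.59 on the log2 scale (SE 0.16, 95% interval -0.96 to -0.22, limma adjusted p 0.048). The call was lost without Bcas2 cKO library 3 (limma adjusted p 0.14) or 5 (0.13), without control library 3 (0.12) or 4 (0.14), when all genes above 0 were tested (0.12) and with eBayes without trend (0.059). After rescaling without the acinar markers the log2 fold change of Syt11 was -0.32 (limma adjusted p 0.15), or -0.55 relative to the median of all genes.

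The pair can be compared within each library, where scaling between libraries plays no part. The ratio of Syt4 to Syt11 FPKM was 5.62, 6.11 and 6.43 in Bcas2 cKO libraries 3, 4 and 5, against 3.13, 2.88 and 2.82 in control libraries 1, 3 and 4. The mean ratio was 6.06 ± 0.407 in Bcas2 cKO and 2.94 ± 0.168 in control (SD, n = 3 each), and every Bcas2 cKO ratio exceeded every control ratio. The ratio of Syt5 to Syt7 averaged 0.588 ± 0.0852 in Bcas2 cKO and 0.281 ± 0.0510 in control, and that of Syt5 to Syt13 0.1001 ± 0.0271 in Bcas2 cKO and 0.0447 ± 0.00643 in control. The ratio of Syt7 to Syt13, the most abundant members in control, overlapped, with 0.168 ± 0.0209 in Bcas2 cKO and 0.161 ± 0.0222 in control (SD, n = 3 each). The pairs were chosen after their values were seen, and no p is given for them.

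**Figure D3:**
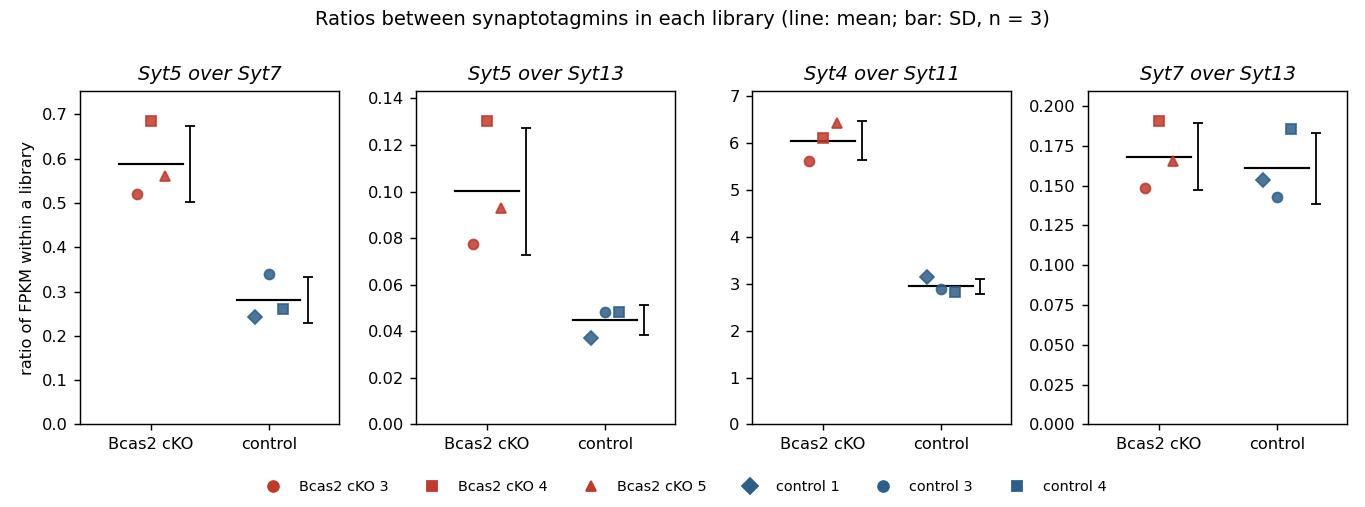
Ratio of the FPKM of 1 synaptotagmin to that of another within a library (vertical axes, each starting at 0), in Bcas2 cKO (red) and control (blue), with means and SD. The ratio of Syt4 to Syt11 was 5.62 to 6.43 in Bcas2 cKO and 2.82 to 3.13 in control, while the ratio of Syt7 to Syt13 overlapped between groups.

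Syt13, Syt14 and Syt17 do not depend on Ca2+ for their known interactions. Syt13 is a marker of the endocrine lineage in the developing mouse pancreas. Syt13 (ENSMUSG00000027220), on the plus strand of chromosome 2, 92915098 to 92956058, with 1 annotated transcript, was 278, 238 and 267 FPKM in Bcas2 cKO libraries 3, 4 and 5. Control libraries 1, 3 and 4 held 354, 328 and 296 FPKM. The groups did not overlap, and Bcas2 cKO library 4 was the lowest. Syt13 had a log2 fold change of -0.32 (SE 0.12, 95% interval -0.60 to -0.04, limma adjusted p 0.12). With quantile normalization it was -0.58 (limma adjusted p 0.035), and after rescaling without the acinar markers -0.020, or -0.24 relative to the median of all genes. Between 15755 and 21109 reads per library stood behind Syt13, so counting error (0.759% of the mean in Bcas2 cKO and 0.745% in control) was small beside the SD between libraries (7.92% in Bcas2 cKO and 8.95% in control).

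Syt14, whose product binds phospholipids without Ca2+ and whose human gene has been tied to a cerebellar ataxia, was the member with the tightest replicates. Syt14 (ENSMUSG00000016200) lies on the minus strand of chromosome 1, 192891233 to 193035775, and spans 145 kb. It was 7.32, 6.94 and 6.90 FPKM in Bcas2 cKO libraries 3, 4 and 5, against 9.36, 9.003 and 9.74 FPKM in control libraries 1, 3 and 4. The groups were well separated, and the SD of each (3.29% of the mean in Bcas2 cKO and 3.93% in control) was near the counting error of 2.59 and 2.47%. Syt14 fell by 0.36 on the log2 scale (SE 0.07, 95% interval -0.53 to -0.20, limma adjusted p 0.019). The adjusted p was 0.058 to 0.068 without Bcas2 cKO library 3, 4 or 5 or control library 4, with log2 fold changes of -0.39 to -0.34. After rescaling without the acinar markers it was -0.10 (limma adjusted p 0.63), or -0.32 relative to the median of all genes.

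The promoters of Syt11 and Syt14, the members that fell, are printed because both genes moved the same way and both have an entry in RefSeq's promoter table (GRCm38.p6), in which 5 of the 10 members were found by symbol. Each sequence runs 5′ to 3′ on the minus strand, from 250 bases before the RefSeq start site through its first 50 bases, and capitals mark matches to the GC box letters GGGCGG on either strand. The Syt11 window is chr3:88772550-88772849 and the Syt14 window is chr1:193035726-193036025.
Syt11: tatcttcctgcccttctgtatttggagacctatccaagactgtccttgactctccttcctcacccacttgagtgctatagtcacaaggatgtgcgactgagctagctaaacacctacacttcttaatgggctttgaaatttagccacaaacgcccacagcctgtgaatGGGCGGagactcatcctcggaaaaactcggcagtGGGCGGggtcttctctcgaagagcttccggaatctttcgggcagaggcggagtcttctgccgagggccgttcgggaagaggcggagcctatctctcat
Syt14: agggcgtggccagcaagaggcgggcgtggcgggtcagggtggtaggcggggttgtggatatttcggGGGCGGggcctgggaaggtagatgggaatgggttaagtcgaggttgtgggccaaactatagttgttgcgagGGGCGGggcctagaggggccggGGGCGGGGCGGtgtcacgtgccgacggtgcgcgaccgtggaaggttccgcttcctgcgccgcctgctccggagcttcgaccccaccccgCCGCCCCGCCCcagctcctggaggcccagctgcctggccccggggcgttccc
The Syt11 window held 2 GC boxes, at -82 and -48 from the start site, and the Syt14 window held 6, at -184, -113, -91, -86, -2 and 4, of which 2 pairs overlap. Of the other members with an entry used, which did not pass, Syt9 had 3 GC boxes, Syt1 had 1 and Syt3 had none. Their log2 fold changes were also negative, at -0.27, -0.27 and -0.44. No entry was found for Syt5, which rose, and none was used for Syt4, whose log2 fold change was positive. These counts therefore give no contrast by direction. GC boxes were found in 35.7% of the 32851 promoters of the same length in the table. The CRE TGACGTCA (in 1.79% of promoters), its core TGACG (20.8%, part of the CRE), the AP-1 letters TGANTCA (7.81%), the TATA box TATAAA (13.6%) and the CCAAT box, searched as CCAAT (37.4%), were searched on both strands and matched neither window. The GC content was 53% for Syt11 and 71.3% for Syt14, against a median of 52.7% over all promoters. The RefSeq start of Syt14 is the 5′ end of the gene in the deposited table, while that of Syt11 lies 2565 bases inside it.

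Syt17, also called B/K protein and known in neurons for traffic of vesicles and receptors, was at 0.392, 0.404 and 0.490 FPKM in Bcas2 cKO libraries 3, 4 and 5 and at 0.424, 0.541 and 0.549 FPKM in control libraries 1, 3 and 4. It was under the minimum of 1 FPKM and was not tested. It rested on 35 to 44 reads per library, whose counting error of 15.9% in Bcas2 cKO and 16.2% in control was larger than the SD of 12.5 and 13.9%. In a fit of all genes above 0 its log2 fold change was -0.074 (SE 0.088, limma adjusted p 0.67), on a scale that understates changes of genes this low.

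Across the 6 libraries, the 3 genes whose log2(FPKM + 1) followed Syt5 most closely were Tmem208, Nacc2 and Imp4 (Pearson r of 0.995 to 0.999), out of 243 genes with r over 0.95. Nampt, Ndn and Ppp3cb followed Syt11 (0.991 to 0.994) and Slc44a3, Cmtm4 and Steap2 followed Syt14 (0.997 to 0.998). Such values over 6 libraries in 2 groups describe the ranking only, because every gene that separates the groups shares much of its pattern.

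Of the 7 other Syt genes, only Syt2 reached 1 FPKM. Syt2, a fast Ca2+ sensor of neurons close to Syt1, rose, with 3.28, 2.94 and 3.85 FPKM in Bcas2 cKO libraries 3, 4 and 5, against 2.08, 2.25 and 1.88 FPKM in control libraries 1, 3 and 4. On the log2 scale the rise was 0.50 (SE 0.11, limma adjusted p 0.029). The groups did not overlap, and Syt2 exceeded Syt1 in every library but control library 4. With 1 library left out at a time, Syt2 kept its call only without Bcas2 cKO library 4, and lost it in the 5 other fits. Syt10, a sensor for secretion of IGF-1 in olfactory bulb neurons of mice, had 14, 4 and 10 reads in Bcas2 cKO libraries 3, 4 and 5 and none in any control library. Its mean of 0.285 ± 0.150 FPKM in Bcas2 cKO (SD, n = 3) was 2.56 times the 0.111 FPKM that 3 reads per control library would give. That floor covers only counting error in control. Bcas2 cKO library 4, at 0.123 FPKM, was near it, so 2.56 is not a lower bound of the change. Syt6, Syt12, Syt15 and Syt16 overlapped between groups at means under 1 FPKM, and Syt8 had 1 read in all.

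Beyond the synaptotagmins, 68 genes of Ca2+-regulated exocytosis were followed, of which 60 were tested. Of these 17 fell and 3 rose, and the others did not pass, against 7.55% falling and 6.97% rising over all genes tested. The median log2 fold change was -0.17 in the list and -0.03 over all genes tested. After rescaling without the acinar markers none fell and 3 rose (limma, the median of all genes then being 0.22). With libraries left out in turn 7 to 14 passed. Among the genes called, the largest changes on the log2(FPKM + 1) scale were those of Rab37 (-0.78), a GTPase of secretory granules, Cadps (-0.73), which primes dense-core vesicles for fusion, Synpr (0.62), a synaptic vesicle membrane protein, and Erc2 (-0.61), a scaffold of the active zone. That scale understates low genes, and by the ratio of mean FPKM Erc2 (0.492) lay below Cadps (0.574) and Rab37 (0.571). Snap25, a SNARE of the plasma membrane, was 25.04 ± 0.925 FPKM in Bcas2 cKO and 26.4 ± 0.832 FPKM in control (SD, n = 3 each, limma adjusted p 0.52). Of 16 related genes for proteins with several C2 domains 8 were tested, and 2 passed, Rph3a and Sytl4, against 14.5% of all genes tested. Sytl4 is also in the exocytosis list and is 1 of its 17 falls, so the 2 lists share that call. Rph3a, an effector of Rab3 and Rab27 GTPases, had 268, 146 and 135 reads in Bcas2 cKO libraries 3, 4 and 5, against 14, 0 and 6 reads in control libraries 1, 3 and 4. It reached the minimum mean of 1 FPKM only through the Bcas2 cKO libraries (2.22 ± 0.837 FPKM, against 0.0928 ± 0.0952 FPKM in control, SD, n = 3 each) and was not tested without Bcas2 cKO library 3, so its call rests in part on that filter and is not read as a result. Sytl4, the granule protein granuphilin, was 69.5 ± 5.12 FPKM in Bcas2 cKO and 89.4 ± 3.63 FPKM in control (SD, n = 3 each, log2 fold change -0.36, limma adjusted p 0.041), and its call was lost in each of the 6 fits with 1 library left out.

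**Figure D4:**
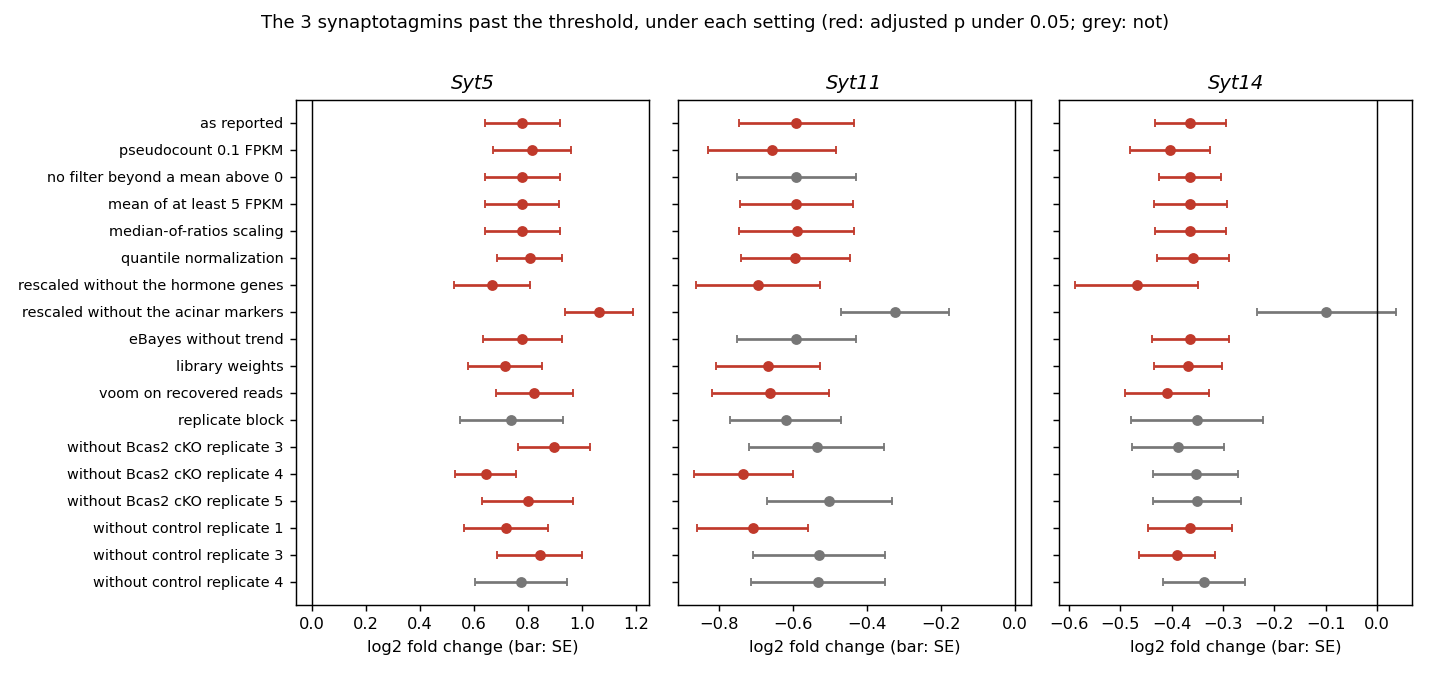
Log2 fold change (horizontal axes, with SE) of Syt5, Syt11 and Syt14 as reported and under the 17 other settings (rows), red where the limma adjusted p was under 0.05 and grey where it was not. No setting changed a sign. Syt5 passed in all but 2 of them, without control library 4 and with the replicate block, and Syt11 and Syt14 passed in 9 and 11.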

How the data were processed

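RNA of 3 Bcas2 cKO and 3 control islet libraries was measured. Per the labels' protocols, Trizol was used for extraction and a SMARTer kit for the libraries. The build was GRCm38 (mm10), per the submitters' processing notes. For the aligner, the counting program and the strand setting, the sources used here give no name. The authors deposited FPKM for 54532 genes with identifiers, coordinates and gene lengths, per the file headers. Gene length, in bases, is the authors' deposited value; it was used to recover reads and so enters counting errors, read floors and the voom setting, but not the limma fit on FPKM. GENCODE M21 (GRCm38) held 54409 of the identifiers, 98.26% of them at the same coordinates.

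Columns were matched to samples by name, except the Bcas2 cKO column numbered 5, which no label carries and which was used by its group. Multiplied by gene length, 100% of the FPKM above 0 came out as whole multiples of 1 read, within 0.01 of a read, which gave the reads per gene. The depth in the FPKM was 0.890 to 1.11 times the total of these reads, so a scaling by the authors is also in the values. Counting errors and floors of 3 reads cover counting error only, while the 95% intervals come from limma and the spread between libraries. Between every pair of libraries, chi-square per degree of freedom was 13.6 or more (genes with 50 reads or more), so none was a copy of another.

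The 13723 genes whose mean reached 1 FPKM entered limma 3.58.1 in R 4.3.3 as log2(FPKM + 1) (lmFit, eBayes with trend, Benjamini-Hochberg adjustment). The log2 scale with a pseudocount of 1 understates changes of low genes. The members, gene lists and settings were chosen with earlier results of these data known. The genes named are all 10 members, up to 4 changed genes of each list with the largest change, and the 3 genes most alike in pattern to each changed member. Snap25, Sytl4 and the other Syt genes given by value are list members named beside that rule. Tested on simulated data (3 sets of 13723 genes drawn from these libraries' means and depths, with 1 spread for all), it found 15% of changes of 0.5 on the log2 scale, 79.2% of changes of 1 and 98.3% of changes of 2. Of its calls there, 9.24% were false. Other settings were a pseudocount of 0.1, no filter, a minimum of 5 FPKM, scaling by median of ratios, quantiles made equal, rescaling without hormone genes or acinar markers, eBayes without trend, library weights, limma voom on the recovered reads, the library number as a block, and leaving out each library. Rescaling without a gene list made the summed FPKM of all other genes equal in every library. Without the acinar markers that sum still held Ins1 and Ins2. Python 3.11.15 with pandas 2.3.3, scipy 1.17.1, numpy 2.4.6 and, for figures, matplotlib 3.10.9 did the rest.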

Additional observations from a re-analysis of the deposited data

How the results depend on the processing

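The 1993 calls over all genes (957 rises and 1036 falls) became 1144 with no filter on low values and 538 with the library number as a replicate block, and ranged from 878 to 1950 with libraries left out. Rises made up 48.0% of calls as reported, 32.7% after rescaling without the hormone genes and 91.1% after rescaling without the acinar markers. With these rescalings the all-gene median of the log2 fold change was -0.12 and 0.22, against -0.03 as reported. The 3 calls among the members became 0 with the replicate block (limma, 5 at an unadjusted p under 0.05) and 0 to 3 with libraries left out. The count was 0 without control library 4 (5 unadjusted) and 1 without Bcas2 cKO library 3, and voom gave 4. In all 17 settings Syt5 had a log2 fold change between 0.64 and 1.06, Syt11 between -0.73 and -0.32, and Syt14 between -0.47 and -0.10. Syt7 changed sign, to 0.044, after rescaling without the acinar markers. Syt4 passed the threshold under that rescaling alone (0.65, adjusted p 0.021), Syt3 after rescaling without the hormone genes, with voom and without Bcas2 cKO library 5, and Syt13 with quantile normalization. No setting brought Syt1, Syt7 or Syt9 past it. Of the other Syt genes 1, Syt2, was tested and called as reported; calls became 0 of 7 tested with no filter (limma, 2 unadjusted, Syt2 and Syt10), 0 after rescaling without the hormone genes and with the replicate block (limma, 1 unadjusted in each), and 0 or 1 with libraries left out. With a mean of at least 5 FPKM no such gene was left to test. The 2 calls among related C2 proteins became 1 with no filter, with quantile normalization, after rescaling without the acinar markers and with the block, and 0 or 1 with libraries left out. The 20 calls in the exocytosis list became 11 with no filter, 3 after rescaling without the acinar markers and 0 with the block (limma, 17 unadjusted), and 7 to 14 with libraries left out. The rescalings change the all-gene median and the smaller sets leave fewer libraries; beyond that the cause was not tested. The labels number both groups 1, 3 and 4, but no Bcas2 cKO column is numbered 1, so the columns share 3 and 4, and a pairing of Bcas2 cKO library 5 with control library 1 was not fitted. The deviations from group means correlated at -0.149 for number 3 and 0.0453 for number 4, and no label says that the number marks an animal, so the libraries share only a number. With the block, the log2 fold changes were 0.74 for Syt5 (adjusted p 0.11), -0.62 for Syt11 (0.092) and -0.35 for Syt14 (0.19), on the 2 pairs alone. Few reads stood behind Syt17, at 35 to 44, and Syt10, at 14 or fewer.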
